A study of Mus musculus with 4 samples.

Results

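The nuclei described here came from the mouse hippocampal dissection, held a transcript of the neuronal gene Syt1 and held transcripts of a small set of genes known from the thalamus and midbrain. Not all were neurons by their markers, since 122 (10.3%) lay in clusters led by genes of other cells. A nucleus was selected when it passed the filters on depth (at least 500 unique molecular identifiers, UMIs, each UMI standing for 1 captured transcript) and on mitochondrial transcripts (at most 20%), held at least 1 UMI of the neuronal gene Syt1 and no UMI of Trp73, and held at least 4 summed UMIs of Slc17a6, Zfhx3, Ebf2, Ebf3, Otx2os1 and Tcf7l2, from at least 2 of these 6 genes and at 10 or more per 10000 UMIs. The rule chose 1182 nuclei of 48821 past the filters, which were 2.67% of the 44276 nuclei with a Syt1 UMI. These 1182 are called the selected nuclei. Nuclei with a Syt1 UMI are called neurons for short, and the 43094 of them that were not chosen the other neurons.

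The study profiled hippocampal nuclei of male mice 14 h after repeated social defeat (RSD), in which a CD-1 aggressor was placed in the home cage for 2 h on each of 6 nights, or of undisturbed controls. In the diet experiment, C57BL/6 males (5 to 7 weeks) ate vehicle chow (Control-Vehicle and Stress-Vehicle) or chow with PLX5622, a CSF1R antagonist that depletes microglia (Control-PLX5622 and Stress-PLX5622), for 7 days before RSD. In the genotype experiment, mice bred in-house carried either intact IL-1R1 without Cre (Con-IL-1R1+/+ and Stress-IL-1R1+/+) or a deletion of Il1r1 by Cre from the Vglut2 (Slc17a6) gene, so that the receptor is lost in glutamatergic neurons that express or once expressed it (Con-nIL-1R1-/- and Stress-nIL-1R1-/-); their age is not given in the sources used here. Each of the 8 conditions was 1 pool of the hippocampi of 3 mice, split over 4 sublibraries that were technical portions of the same nuclei, so a condition had no replicate pool. UMIs past the filters ranged from 6555513 in the Stress-PLX5622 pool to 58081835 in the Con-nIL-1R1-/- pool, with a median of 929 to 5012 UMIs per nucleus. No full barcode was shared between pools.

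Excitatory neurons of the cortex and hippocampus mostly load glutamate into vesicles with VGLUT1 (Slc17a7), while those of the thalamus, the midbrain and much of the brainstem use VGLUT2 (Slc17a6). TCF7L2, a transcription factor of the Wnt pathway, is a lasting mark of thalamic and habenular neurons, and the EBF factors and OTX2 mark neuronal lineages of the diencephalon and midbrain. Neurons of the telencephalon, to which the hippocampus belongs, carry instead factors such as NEUROD2, TBR1 and BCL11B. The thalamus and the pretectum lie against the hippocampus in the intact brain.

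In the GRCm39 annotation, Slc17a6 lies at chr7:51271434-51320867 (plus strand), Ebf3 at chr7:136795402-136916218 (minus), Ebf2 at chr14:67470736-67668394 (plus), Tcf7l2 at chr19:55730188-55922091 (plus) and Zfhx3 at chr8:108669276-109688262 (plus). Otx2os1 is a long non-coding RNA at chr14:48906165-49109111 (plus) that shares 5112 bases with Otx2 on the opposite strand. Whether the counting used strand is not given in the sources used here, so reads in those bases cannot be assigned to Otx2 or Otx2os1 with certainty. Zfhx3, a homeodomain and zinc finger factor, spans 1018987 bases. CPM is not set per gene length, so levels are compared between nuclei, and where a list's gene with most UMIs is named this says only which gene sets the list's sum.

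The selected nuclei came mostly from 1 pool. The Con-IL-1R1+/+ pool held 802 of them, or 67.9%, which were 12.1% of its 6612 neurons (exact 95% interval 11.4 to 12.9). Control-Vehicle held 181 of 7404 neurons, or 2.45% (2.11 to 2.82), and Control-PLX5622 held 72 of 3865, or 1.86% (1.46 to 2.34). The other 5 pools were each under 1%, and in 4 of them most of the selected nuclei were microglia-like or otherwise led by non-neuronal genes (clusters 6 to 8, described below with the other clusters). Of these, the stressed IL-1R1+/+ pool was at 0.825% (44 of 5331), the stressed nIL-1R1-/- pool at 0.598% (32 of 5348) and Stress-PLX5622 at 0.370% (15 of 4050). Stress-Vehicle was at 0.330% (18 of 5462) and Con-nIL-1R1-/- at 0.290% (18 of 6204). Without clusters 6 to 8 the 5 shares were 0.281%, 0.0935%, 0.346%, 0.110% and 0.0806% in the same order, with Stress-PLX5622 the highest of them. The intervals cover counting error only. The order of the shares over all selected nuclei placed Con-IL-1R1+/+ above every other pool and Control-Vehicle and Control-PLX5622 next, with intervals of the latter pair that overlapped, as did those of neighbouring pools among the other 5.

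The excess in Con-IL-1R1+/+ was present in each of its 6 wells of the first barcoding round, where the share ran from 10.5% to 14.0%. It was present in its 4 sublibraries as well, at 13.7%, 10.1%, 9.50% and 15.0%. The 2 sublibraries with the lower shares were also the shallower ones, with a median of 2380 and 2128 UMIs per neuron in this pool against 5147 and 5963.5. Each nucleus was also thinned to 1000 UMIs, which left out 9824 shallower nuclei, and the rule then asked for 2 summed UMIs in place of 4. Con-IL-1R1+/+ was at 6.72% under this eased rule, Control-PLX5622 at 2.82% and Control-Vehicle at 1.48%. The order of the latter pair turned and Con-IL-1R1+/+ stayed highest under this setting. It left out shallow nuclei, cut depth and eased the rule, so these shares are not those of the main rule at a lower depth. Before the cut and under the main rule, the nuclei kept were 66 selected and 1972 other neurons in Control-PLX5622, and 176 and 6516 in Control-Vehicle. The order of this pair was thus already turned among the nuclei kept.

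RSD and control pools were compared across diets and genotypes, since each condition had 1 pool. The mean share was 4.18% ± 5.38 (SD, n = 4 pools) in controls and 0.531% ± 0.229 (n = 4 pools) after RSD, a difference of -3.65 percentage points (exact two-sided permutation test over the pools, p = 0.143, the smallest possible being 0.0286). With the 4 pools paired by diet or genotype, the share was lower after RSD in 3 of 4 pairs (exact sign-flip test, p = 0.25, the smallest possible being 0.125). Without Con-IL-1R1+/+ the difference fell to -1.002 percentage points (p = 0.171), and without Con-nIL-1R1-/- it was -4.95 points with a p of 0.0286 by the exact permutation test. The difference did not exceed the spread between control pools, and 1 pool set most of its size. With 1 pool per condition, a difference between conditions and a difference between dissections cannot be told apart.

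**Figure D1:**
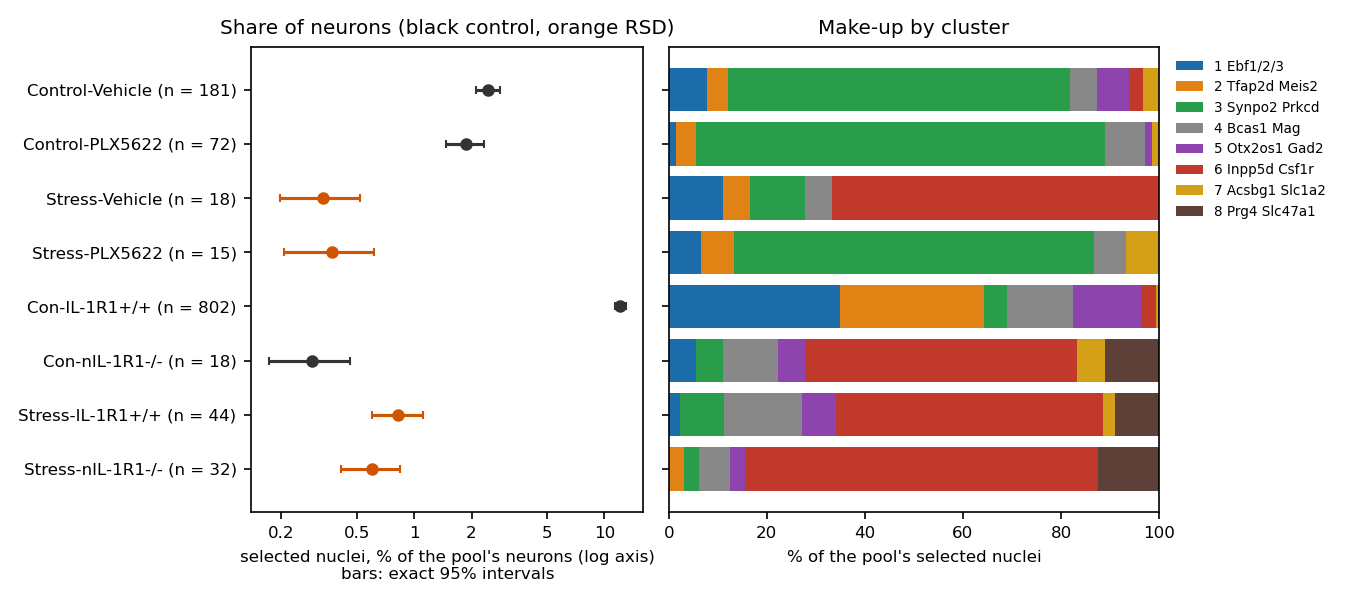
Left, selected nuclei as a percentage of each pool's neurons on a log axis, with points for the 8 pools (black control, orange RSD) and bars for exact 95% intervals; right, the percentage of each pool's selected nuclei in each of 8 clusters. The Con-IL-1R1+/+ pool stands apart at 12.1%, and cluster 6 fills much of the bar in 4 pools with few selected nuclei.

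The rule was met mainly through Zfhx3 and Tcf7l2, and these values describe the choice rather than test it. A Zfhx3 UMI was found in 95.01% of the selected nuclei (12.2% of the other neurons) and a Tcf7l2 UMI in 77.3% (5.03%). The glutamate transporter Slc17a6 was found in 27.8% (exact 95% interval 25.3 to 30.5; 2.29% of the other neurons), Ebf3 in 22.9% (1.15%), Otx2os1 in 15.6% (1.33%) and Ebf2 in 14.7% (0.708%). The median depth was 4378 UMIs per selected nucleus and 2560 per other neuron. Of the 1182 nuclei, 496 (42.0%) met the rule with Zfhx3 and Tcf7l2 alone and 30 held neither. Ebf2 or Ebf3 was found in 337, and 299 of these were in Con-IL-1R1+/+. Slc17a6 and an EBF gene were found together in 137 nuclei. UMIs of Slc17a6 and of an EBF gene were thus each found in a minority of the selected nuclei, and those of Zfhx3 and Tcf7l2 in most. At this depth a nucleus without a UMI of a gene may still express it, so these shares do not limit how many do.

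The transmitter genes divided them further. Slc17a6 UMIs were found in 32.3% of the selected nuclei of Con-IL-1R1+/+, 27.1% of Control-Vehicle and 13.9% of Control-PLX5622, and in 3.13% to 13.3% of the other pools. In CPM (UMIs of a gene per 1000000 UMIs of the summed nuclei), Slc17a6 was at 79.3 in Con-IL-1R1+/+ (440 UMIs, exact Poisson 95% interval 72.1 to 87.1), 72.4 in Control-PLX5622 (16 UMIs, 41.4 to 118) and 60.5 in Control-Vehicle (69 UMIs, 47.1 to 76.6). The other 5 pools held 1 to 5 UMIs each, at 8.31 to 66.7 CPM, with intervals that all overlapped, so they have no order. Gad1 or Gad2, the enzymes that make GABA, were found in 261 selected nuclei and the cortical and hippocampal transporter Slc17a7 in 112. The share of nuclei with a Gad1 or Gad2 UMI ran from 5.22% in cluster 2 to 89.3% in cluster 5 of the clusters of 50 or more nuclei described below, while the summed level of Gad1 was near that of the other neurons (median over pools 52.2 and 62.5 CPM).

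Just inside the threshold, at 4 summed UMIs, were 106 nuclei, and just outside it, at 3, were 118. A Slc17a6 UMI was found in 12.3% of the former and 11.9% of the latter, and Zfhx3 with Tcf7l2 alone in 63.2% and 64.4%. Their summed thalamic markers, leaving out the genes of the rule, were 4884 and 5169 CPM. The microglia list was at 273 and 409 CPM. Stress-Vehicle held 1 of the 106 and 16 of the 118, beside its 18 selected nuclei in all, so its count depended on where the threshold lay. Another 417 nuclei failed only the condition on 10 per 10000 UMIs, and 27 only that on Trp73.

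Clustering the selected nuclei alone gave 8 clusters, described here by their leading genes with no test, since the clusters were made from the same values. Clusters 1, 2 and 5 came to 93.3%, 94.4% and 86.3% from Con-IL-1R1+/+ and may be that pool rather than a type. Among clusters 1 to 5, cluster 3 drew least on a single pool, with 51.6% of its nuclei from Control-Vehicle. Cluster 6 was also spread over several pools, with 24.7% from its largest. Clusters 6, 7 and 8, 122 nuclei in all, were led by genes of cells other than neurons.

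Cluster 3 (244 nuclei, 20.6%) was thalamus-like. Synpo2, an actin-binding protein of the synaptopodin family, was at 998.5 CPM against 21.1 in the other selected nuclei, and Prkcd, the protein kinase C isoform of first-order thalamic relay neurons, was at 434 against 12.8. Grid2ip, a scaffold that binds glutamate receptor delta 2, was at 239 against 6.06 CPM, Vipr2, a receptor of the peptide VIP, at 161 against 2.95, and Abhd12b at 91.4 against 0.491. The axon guidance gene Ntng1 reached 2614 CPM and the Wnt pathway factor Lef1 466.2. The cluster held 126 nuclei of Control-Vehicle, 60 of Control-PLX5622, 39 of Con-IL-1R1+/+ and 11 of Stress-PLX5622, and 8 of the other 4 pools together. A Slc17a6 UMI was found in 31.2% of its nuclei and a Gad1 or Gad2 UMI in 6.97%.

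Within cluster 3 Prkcd varied widely between the 4 pools, at 524 CPM in Control-Vehicle, 270.6 in Control-PLX5622, 119 in Con-IL-1R1+/+ and 1368 in Stress-PLX5622. Synpo2 ran from 598.6 CPM in Stress-PLX5622 to 1143 in Control-Vehicle, and Ntng1 from 2052 in Stress-PLX5622 to 2963 in Con-IL-1R1+/+. Abhd12b ran from 45.2 CPM in Con-IL-1R1+/+ to 256.5 in Stress-PLX5622 (6 UMIs), Grid2ip from 172 to 299 in the same pools, and Vipr2 from 56.4 in Control-PLX5622 to 222 in Con-IL-1R1+/+. UMIs of each of these 6 genes were thus found in the cluster 3 nuclei of the 4 pools, at levels that differed between them. With 1 pool per condition these differences had no replicate check.

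Cluster 1 (300 nuclei, 25.4%) was led by the EBF genes and stays unnamed. Ebf1, which the rule did not use, was at 416 CPM against 93.4 in the other selected nuclei, Ebf2 at 199 against 24.4 and Ebf3 at 194 against 39.1. The non-coding RNA Lncenc1 led the fold at 105 against 10.2 CPM, followed after Ebf2 by Dgkk, a diacylglycerol kinase, at 51.3 against 7.75. Zfp521, a zinc finger partner of EBF factors, was at 205 CPM, the serotonin receptor Htr2c at 506 and Tacr1, the substance P receptor, at 53.1. A Slc17a6 UMI was found in 44.3% of its nuclei, the highest share of the 8 clusters. The 14 nuclei of this cluster from Control-Vehicle held Ebf1 at 293 CPM and Htr2c at 657, against 422 and 504 in the 280 of Con-IL-1R1+/+, but Ebf2 at 23.5 against 194 and no Ebf3 UMI against 198 CPM. Over all selected nuclei of a pool, Ebf2 was at 88.3 CPM in Con-IL-1R1+/+ (490 UMIs in 163 of 802 nuclei), while the 340.5 CPM of Con-nIL-1R1-/- came from 41 UMIs in 2 of 18 nuclei and the 129 CPM of Stress-Vehicle from 9 UMIs in 1 nucleus.

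Cluster 2 (249 nuclei, 21.1%), also unnamed, was led by Tfap2d, a transcription factor of the AP-2 family known from the superior colliculus, at 167 CPM against 22.2. Rbm20, a splicing regulator, was at 103 against 16.3 CPM and Ndst4, an enzyme of heparan sulfate synthesis, at 602 against 118. The homeodomain factors Meis2 and Zfhx4 were at 580.2 and 456 CPM and the forkhead factor Foxp2 at 657. Of this cluster 235 nuclei were from Con-IL-1R1+/+, and its 8 nuclei of Control-Vehicle held no UMI of Tfap2d, Foxp2 or Slc17a6, against 170.3, 672 and 125 CPM in the 235.

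Cluster 5 (131 nuclei, 11.1%) was led by Otx2, Gata3 and the GABA genes and stays unnamed. Otx2, a homeodomain factor of the forebrain and midbrain, was at 71.8 CPM against 3.40, its neighbour Otx2os1, which the rule used and whose reads may be mixed with those of Otx2, at 974.5 against 50.9, and Gata3, a zinc finger factor of midbrain GABA neurons, at 93.5 against 5.18. Gad1 was at 272 and Gad2 at 352 CPM, and Chrm2, a muscarinic receptor, at 577. A Gad1 or Gad2 UMI was found in 89.3% of its nuclei and a Slc17a6 UMI in 1.53%. Its 12 Control-Vehicle nuclei held Otx2 at 94.9 CPM, Gata3 at 71.2 and Gad2 at 617, against 72.0, 97.0 and 338 in the 113 of Con-IL-1R1+/+. The same 3 genes were thus found together in a second pool.

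Cluster 4 (136 nuclei) combined neuronal and oligodendrocyte genes. Its leading genes were Bcas1, of newly formed oligodendrocytes, at 225 against 14.7 CPM and the myelin gene Mag at 76.3 against 6.47. Car8, at 56.6 against 4.60 CPM, was found in only 2.94% of its nuclei, and Con-nIL-1R1-/-, with 2 nuclei in the cluster, held 89 of the Car8 UMIs. Its median depth of 7744.5 UMIs was the highest of the clusters. Of its nuclei 32.4% were among the 6% with the highest doublet scores of their pool, against 1.23% to 4.67% in clusters 1, 2, 3, 5 and 6. Gad1 or Gad2 was found in 47.1% and Slc17a7 in 24.3%. The part of nuclei read together under 1 barcode in these values was not tested.

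Cluster 6 (97 nuclei) was microglia-like, led by Selplg, Ctss, Spi1 and Tlr7 at 155 to 299.6 CPM. The signalling phosphatase Inpp5d was at 1515 CPM and Csf1r, the receptor that PLX5622 blocks, at 555. A single Syt1 UMI had placed 43.3% of these nuclei among the neurons, and Zfhx3 and Tcf7l2 alone met the rule in 61.9%. An Ebf3 UMI was found in 32.0% of them, at 113.7 CPM in the cluster. None of the 97 came from the PLX5622 pools, which held 87 selected nuclei between them in the other clusters. Cluster 7 (14 nuclei) was led by Acsbg1, Ntsr2, Myoc, S1pr1 and Etnppl, at 481 down to 126.5 CPM, and was astrocyte-like, with the listed markers Slc1a2, a glutamate transporter gene, at 9109 CPM and Aqp4, a water channel gene, at 101. Cluster 8 (11 nuclei) stays unnamed and was led by Prg4 at 1364 and Slc47a1 at 572 CPM, with Col1a2, a collagen gene, at 341. The 3 clusters made up 13 of the 18 selected nuclei of Con-nIL-1R1-/-, 27 of 32 of Stress-nIL-1R1-/-, 29 of 44 of Stress-IL-1R1+/+ and 12 of 18 of Stress-Vehicle, but 28 of 802 in Con-IL-1R1+/+ and 11 of 181 in Control-Vehicle. In those 4 pools the rule chose mostly nuclei whose leading genes were not neuronal.

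**Figure D2:**
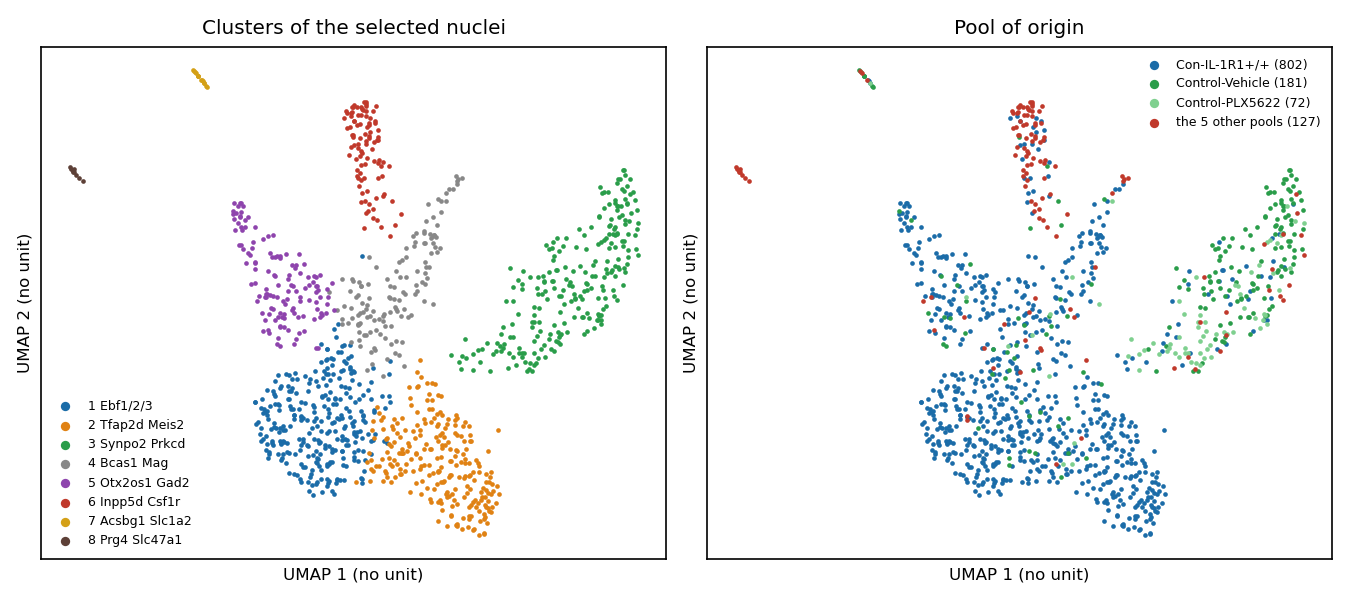
UMAP maps (a plane that places nuclei with similar expression near each other, axes without unit) of the 1182 selected nuclei, one point each, coloured by cluster on the left and by pool on the right. Clusters 1, 2 and 5 are mostly Con-IL-1R1+/+ nuclei, and cluster 3 mixes Control-Vehicle, Control-PLX5622 and Con-IL-1R1+/+.

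**Figure D3:**
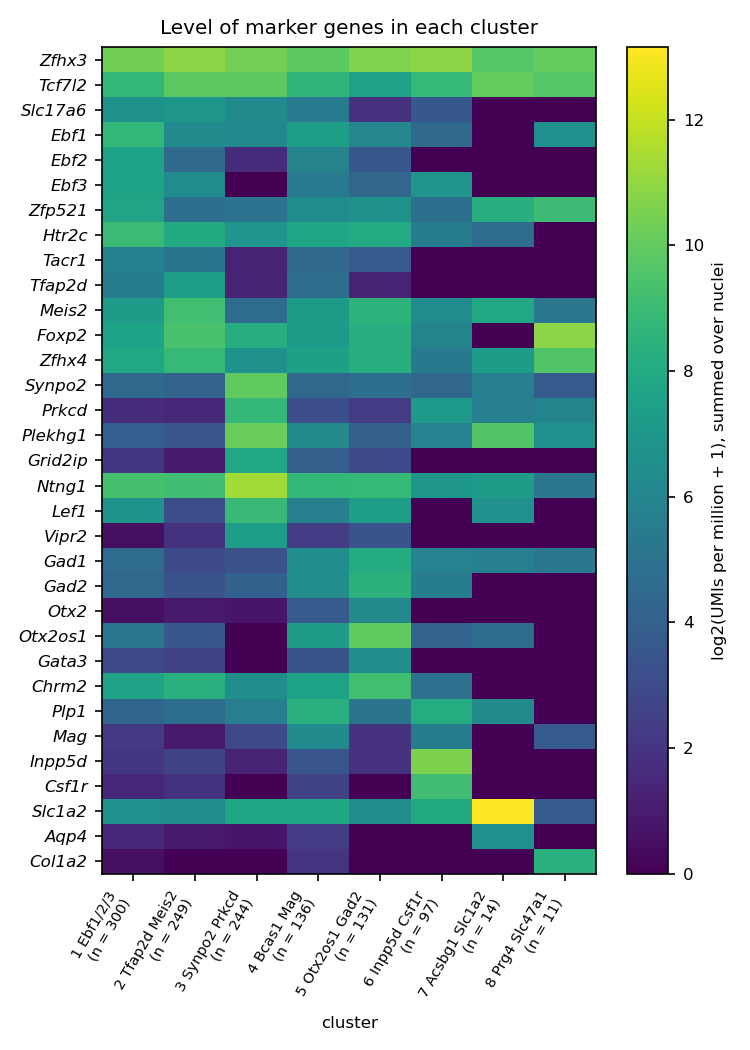
Level of marker genes (rows) in the 8 clusters (columns), as log2 of CPM plus 1 over the summed nuclei of a cluster. Synpo2, Prkcd and Grid2ip are highest in cluster 3, Ebf1, Ebf2 and Ebf3 in cluster 1, and Otx2os1, Gad1 and Gad2 in cluster 5.

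Marker lists gave the same picture by pool. The thalamic list, with the rule genes left out, summed to 8690 CPM in the selected nuclei of Control-Vehicle, 7572 in Stress-PLX5622, 7486 in Control-PLX5622 and 4059 in Con-IL-1R1+/+, and to between 2411 and 3712 in the other 4 pools, against 1464 to 1771 in the other neurons. Rora, a nuclear receptor, had the most UMIs in the list, and Gbx2 was at 0 in each pool except Con-IL-1R1+/+, which held 1 UMI. The midbrain and pretectum list was highest in Con-IL-1R1+/+ at 391 CPM, with all 17 genes found, and was between 0 and 99.7 in the other pools, against 82.9 to 176 in the other neurons. Meis2, at 256 CPM, had the most UMIs in it. The telencephalon list was at 143 to 334 CPM in the selected nuclei and 398 to 567 in the other neurons, so that the groups did not overlap. The microglia list was at 2612 CPM in Stress-Vehicle, 1497 in Stress-IL-1R1+/+, 980 in Con-nIL-1R1-/- and 1998 in Stress-nIL-1R1-/-, and at 31.7 to 96.6 in the 4 pools with a thalamic sum above 4000, where the other neurons of all pools were at 32.8 to 59.4. Csf1r and Inpp5d were at 0 in the selected nuclei of both PLX5622 pools.

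**Figure D4:**
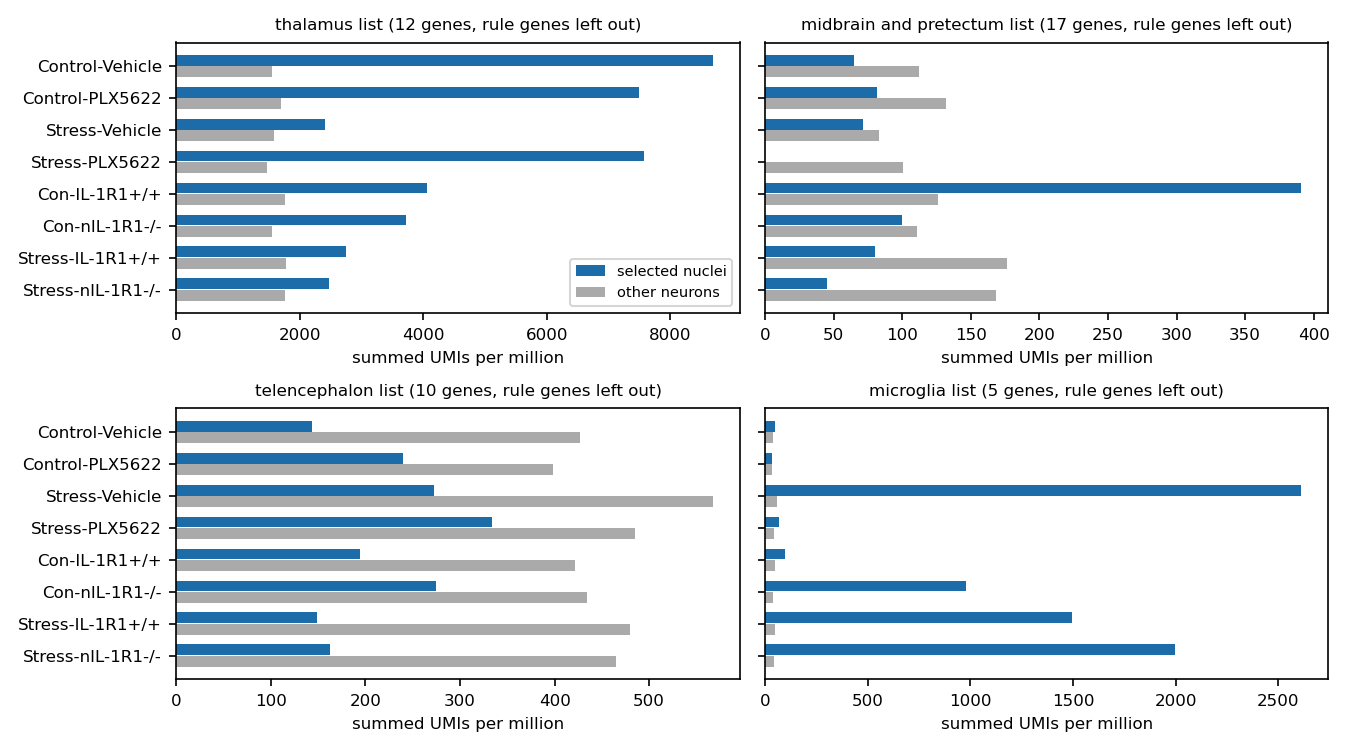
Summed CPM of the thalamus, midbrain and pretectum, telencephalon and microglia lists in the selected nuclei and the other neurons of each pool, rule genes left out. The thalamus list is above the other neurons in all 8 pools, the telencephalon list is below them in all 8, and the microglia list is high in 4 pools.

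Other regions gave little signal. Of the 8 hindbrain genes 7 were at 0 in the selected nuclei of Con-IL-1R1+/+ and all 8 in Control-Vehicle. The hypothalamus and mammillary body list came to 9.19 CPM in Con-IL-1R1+/+ and 1.75 in Control-Vehicle, with the peptide genes Hcrt, Pmch, Avp and Oxt at 0 in both. The midbrain dopamine list summed to 13.9 and 5.26 CPM and the serotonin list to 3.42 and 3.51 in these pools. The habenula list, at 152 and 93.9 CPM, was summed mostly from Nwd2 UMIs (127 and 80.7 CPM), while Gpr151 was at 0 in both.

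The selected nuclei were then compared with the other neurons of the same pools over all genes, with UMIs summed per pool and the pool as a term in the model (edgeR quasi-likelihood test, 8 pools, Benjamini-Hochberg adjustment, absolute log2 fold change of at least 1). The 6 rule genes, Syt1, Trp73 and mitochondrial genes were not counted. Of 16187 genes tested, 717 were higher in the selected nuclei, a background of 4.43%, and 678 were lower, 4.19%. The split between higher and lower depended on the processing. Under DESeq2's size factors in edgeR (RLE) 837 were higher (5.17%) and 352 lower (2.17%), and the median log2 fold change of all genes moved from -0.12 to 0.09. With each nucleus thinned to 1000 UMIs, which also left out shallower nuclei, 479 were higher (4.14%) and 841 lower (7.26%) of 11580. Without the nuclei of clusters 6 to 8, for which 5 pools remained, 496 genes were higher (3.33%) and 563 lower (3.78%) of 14909, and 254 and 431 of these were among those called with all nuclei. With the selected nuclei limited to those holding a Slc17a6 UMI, for which 3 pools remained, 327 genes were higher (2.5%) and 436 lower (3.33%) of 13104. The median of a group of genes below is set beside the median of -0.12 over all genes tested. Each count of calls in a list is to be read beside the shares over all genes given here for the same fit.

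Of all genes tested, 2.01% were higher in the selected nuclei of all 8 pools and 4.38% lower, and 94 and 416 of these were called. The 15 higher genes named here had the largest changes of the 94 that reached 20 CPM, and they included 4 markers of the thalamic list. Synpo2 was at 49.0 CPM in the lowest pool, Con-IL-1R1+/+, 182 at the median and 890.4 in the highest, Control-Vehicle, while the other neurons ran from 6.64 to 26.6, so the groups did not overlap. Its log2 fold change was 3.78 ± 0.30 (SE; edgeR adjusted p = 1.412e-08). Grid2ip ran from 9.37 to 233.5 CPM (median 106) against 2.40 to 8.71, without overlap, at 3.84 ± 0.42. Prkcd ran from 11.7 to 1067 (median 172) against 5.79 to 22.3, an overlap with Con-IL-1R1+/+ as the lowest pool, at 3.65 ± 0.36. Plekhg1, an exchange factor for small GTPases, ran from 61.1 to 1038 (median 269) against 27.5 to 47.0, at 2.45 ± 0.33. In each of these 4 genes the lowest pool was Con-IL-1R1+/+. It held 39 of 802 selected nuclei (4.86%) in cluster 3, while Stress-nIL-1R1-/- held 1 of 32 (3.13%) and was not the lowest. A link between the levels and the share of cluster 3 was not tested.

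The next 8 of the 15 had log2 fold changes of 2.44 to 3.80. Amotl1, an angiomotin family scaffold, ran from 55.0 to 300.2 CPM (median 90.6) against 7.86 to 15.2 in the other neurons, at a log2 fold change of 3.04 ± 0.28. Cnksr3, a scaffold of kinase signalling, was at 3.05 ± 0.30, and Prkch, a second protein kinase C gene, at 2.83 ± 0.31. Rnf152, a lysosomal ubiquitin ligase, was at 2.44 ± 0.32, Vangl1, of planar cell polarity, at 2.52 ± 0.41 and Tafa4, a secreted chemokine-like protein, at 3.04 ± 0.48. Irag1, a target of cGMP-dependent kinase, was at 3.80 ± 0.46 and Rcsd1 at 3.63 ± 0.38. Rcsd1 was highest in Stress-Vehicle, where 12 of 18 nuclei were microglia-like, and without clusters 6 to 8 it was at 2.49, still called. The pools overlapped for Irag1 and Tafa4 and not for Amotl1, Cnksr3, Prkch, Rnf152, Vangl1 and Rcsd1.

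The remaining 3 of the 15 were high in the 4 pools in which microglia-like nuclei were common. Mertk, a receptor for the uptake of dying cells, ran from 31.7 CPM in Control-PLX5622 to 875 in Stress-Vehicle (median 166) against 12.1 to 34.4, at a log2 fold change of 2.83 ± 0.43. Without clusters 6 to 8 its log2 fold change turned to -0.86. Epb41l2, a membrane skeleton protein, ran from 45.3 to 864 CPM and Lrmda from 31.7 to 809.5, both lowest in Control-PLX5622. Without clusters 6 to 8 Epb41l2 was still called, at 1.36, and Lrmda, at 0.69, was not.

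Of the 15 lower genes 9 were named genes and 6 were transcripts without a gene name. Dlx6os1, a non-coding RNA of the interneuron Dlx locus, ran from 0 to 112 CPM (median 50.9) against 169 to 245 in the other neurons, without overlap, and fell by 2.26 on the log2 scale (SE 0.24, edgeR adjusted p = 1.052e-06), but against other neurons with a Slc17a7 UMI it was at 0.68. Itpka, an inositol trisphosphate kinase of dendritic spines, ran from 0 to 49.8 (median 20.7) against 52.9 to 92.6, with a log2 fold change of -2.03 ± 0.24. Neurod2, a factor of cortical and hippocampal excitatory neurons, was at -1.97 ± 0.32 (0.0249 against other neurons with Gad1 or Gad2), Rspo2, a secreted Wnt agonist, at -2.21 ± 0.29, and Slc26a4, an anion exchanger, at -2.17 ± 0.28. Col19a1, a collagen gene, was at -2.12 ± 0.28, Rin1, a Ras effector of forebrain neurons, at -2.13 ± 0.32 and Hs3st4, a heparan sulfate sulfotransferase, at -2.05 ± 0.30. The others were Vwa3b at -2.07 and the 6 transcripts (4921539H07Rik, Gm31698, Gm49678, Gm43517, Gm49677 and Gm30092), at -2.05 to -2.34. Among the 15 lower genes the highest selected pool reached into the range of the other neurons for Neurod2, Rspo2, Hs3st4, Gm31698 and Gm49677. It stayed below that range for the others.

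**Figure D5:**
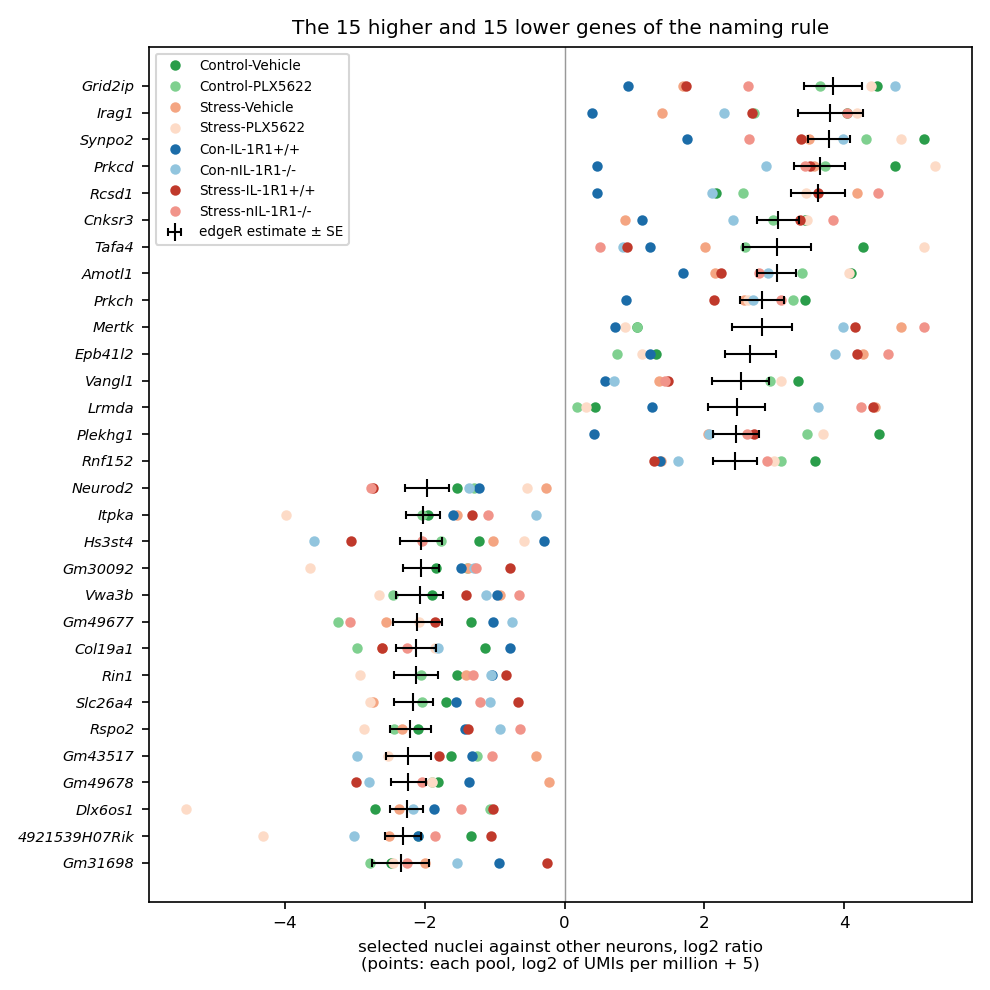
Ratio of selected nuclei to other neurons (log2 of CPM plus 5) for the 15 higher and 15 lower genes, with a coloured point for each of the 8 pools and black marks for the edgeR estimate ± SE. Points lie on 1 side of zero for each gene in all 8 pools, and their spread is widest in the higher genes.

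Regional genes come next, first those of the thalamus. Of 11 thalamic markers tested 7 rose (Lef1, Prkcd, Calb2, Synpo2, Grid2ip, Plekhg1 and Slitrk6) and none fell, with a median log2 fold change of 2.45 beside -0.12 for all genes; RLE gave 9 and the fit without clusters 6 to 8 all 11. Lef1 ran from 11.2 CPM in Stress-nIL-1R1-/- to 405 in Control-Vehicle (median 114) against 7.86 to 33.0, and was higher in 7 of 8 pools (2.75 ± 0.39). Calb2 was above the other neurons in 4 of 8 pools and Slitrk6 in 3, the latter at 0 at the median pool and at most 7.895 CPM. Ntng1 was above the other neurons in 8 of 8 pools but at 0.99 ± 0.30 was just below the size asked for. Because thalamic markers were listed with earlier results of these data known, their count is a description of the nuclei.

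Of 49 diencephalic and midbrain transcription factors listed 32 were tested, of which 16 rose and 1, Meis2, fell, with a median of 1.70. Shox2, Zic5, Gata3, Otx2, Lhx5, Lhx1 and Tal1 were at medians over pools of 0.171 to 0.369 CPM in the other neurons. They could pass the filter on low counts mainly through the selected nuclei, so a higher call was nearly set in advance. The 16 and the median thus describe these nuclei. Foxp2 ran from 71.8 to 729.5 CPM (median 208) against 20.8 to 68.3, without overlap (2.38 ± 0.25). Its highest pool was Stress-nIL-1R1-/-, which held 4 of the 11 nuclei of cluster 8, where Foxp2 was at 1839 CPM. Without clusters 6 to 8 Foxp2 was still called. Zic4, a zinc finger factor, ran from 3.60 to 69.2 (median 33.3) against 0.313 to 3.07, without overlap (4.17 ± 0.47), and its neighbour Zic1 was at 4.06 ± 0.47. Shox2, a thalamic homeodomain factor, was at 4.30 ± 0.69 on the log2 scale but at 0 to 33.4 CPM. The nuclear receptor Rorb was at 1.64 ± 0.39, Pbx3 at 1.36 ± 0.26 and Zfhx4 at 1.21 ± 0.23. Lef1, Lhx1, Lhx5, Lhx9, Otx2, Gata3, Tal1, Zic2 and Zic5 made up the rest of the 16. RLE also gave 16 higher. The fit without clusters 6 to 8 gave 14 higher of 27, with Pbx3 (0.72), Lhx5 and Zic5 no longer called, Tal1 not tested, and Rora (1.05) and Tfap2d (2.37) called in addition. The call for Meis2 (-1.21 ± 0.35) was lost under RLE, and Con-IL-1R1+/+ was the pool in which its selected nuclei were higher, at 256 CPM. The midbrain and pretectum list had 4 higher (Otx2, Gata3, Lhx1 and Lhx5) and 1 lower of 10. The limit on genes near 0 held for these 4. Otx2 may also hold reads of the rule gene Otx2os1, so its call is not independent of the rule. Otx2 and Gata3 were at 0 at the median pool and above the other neurons in 2 of 8 pools each. Lhx1 was also at 0 there and above in 3.

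The EBF family and its zinc finger partners, apart from the rule genes, had 3 higher of 4. Ebf1 ran from 33.4 CPM in Stress-PLX5622 to 565 in Con-nIL-1R1-/- (median 95.1) against 8.99 to 66.3, and was higher in 7 of 8 pools (2.21 ± 0.35). Zfp521 ran from 49.1 to 196 (median 108) against 12.8 to 32.6 (2.11 ± 0.21) and Zfp423 from 56.1 to 294 (median 188) against 32.5 to 56.0 (1.55 ± 0.23). Neither of the latter overlapped between groups. The fourth, Ebf4, was at -0.87 ± 0.25.

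Of the 10 telencephalic markers tested 7 fell, among them Emx1, Neurod2, Neurod6, Tbr1 and Bcl11b, none rose, and the median was -1.68; RLE gave 5 lower. Bcl11b, a zinc finger factor, ran from 78.1 to 224 CPM (median 120) against 226 to 302, lower in 8 of 8 pools without overlap (-1.42 ± 0.20). Emx1, a homeodomain factor of the cortex and hippocampus, ran from 0 to 1.75 CPM against 3.18 to 7.29, also without overlap (-2.001 ± 0.56). The longer list of 20 telencephalic transcription factors had 9 lower and none higher, with 6 lower and 1 higher under RLE. Among the 9, Zbtb20 turned direction against neurons with Gad1 or Gad2.

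Among markers of hippocampal and other neurons, 2 of 6 dentate granule genes (C1ql3 and Dsp), 2 of 5 CA1 genes (Mpped1 and Fibcd1), 2 of 6 CA3 and CA2 genes (Mndal and Rgs14) and 2 of 8 interneuron genes (Erbb4 and Lhx6) fell, and none rose. Over all genes 4.43% were called higher and 4.19% lower. RLE kept both CA1 calls but 1 call in each of the other 3 lists, and DESeq2 kept no interneuron call. Against neurons with Gad1 or Gad2, Dsp turned to 0.36 and Fibcd1 to 0.28. Erbb4 turned to 1.28 against neurons with Slc17a7 and was no longer called without clusters 6 to 8, and the dentate granule list then had 3 lower. The medium spiny list had no call of 5, the midbrain dopamine list none of 3, and the serotonin and hypothalamus lists none of 1 each. The Cajal-Retzius list had Lhx1 and Lhx5 higher and Reln and Cdkl4 lower of 5 (RLE 2 higher and 1 lower; without clusters 6 to 8 only Lhx1 higher and Cdkl4 lower; against neurons with Slc17a7 Reln turned to 0.22), the cerebellar granule list Zic1 higher of 5, and the habenula list Calb2 higher of 5. The rule kept nuclei with a UMI of Trp73, a Cajal-Retzius marker, among the other neurons, where it was at 5.03 to 13.1 CPM. The lower Reln and Cdkl4 may thus follow in part from the rule. For Lhx1 and Lhx5 the limit on genes near 0 held. Without clusters 6 to 8, 1 medium spiny gene (Drd2), 1 midbrain dopamine gene (Ddc) and 2 habenula genes (Chrnb3 and Calb2) were called higher. With selected nuclei holding a Slc17a6 UMI, 2 of 3 medium spiny genes were higher. No hindbrain gene passed the filter on low counts.

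Markers of cells other than neurons followed clusters 6 to 8. All 5 microglial genes rose, among them Csf1r (3.69 on the log2 scale), Inpp5d (3.64), P2ry12 (2.91) and Cx3cr1 (2.88), and without clusters 6 to 8 none rose and 1, Inpp5d, fell. Of 3 vascular leptomeningeal genes Col1a1 and Col1a2 rose, and the 1 gene of that list tested without these clusters was not called. In the other neurons Col1a1 and Col1a2 were at medians of 0.447 and 0.232 CPM, so the limit on genes near 0 held for both. Slc1a3 was the 1 higher of 5 astrocyte genes, and without the clusters none of 4 was. No oligodendrocyte (of 7), oligodendrocyte precursor (of 4) or endothelial gene (of 3) was called; 2 of 3 ependymal genes fell (Cfap54 and Tmem212; RLE kept 1 and DESeq2 none), and of 5 choroid plexus genes Otx2 rose and Kl fell, the latter a call lost under RLE. RLE called 1 oligodendrocyte precursor gene higher. The Otx2 call may hold reads of the rule gene Otx2os1.

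Among transmitter genes, Slc17a7 ran from 0 to 83.1 CPM (median 29.3) against 58.0 to 113 and fell by 1.74 on the log2 scale (SE 0.26), as 1 of 2 genes of this list called lower of 9 tested; RLE kept 1, and without clusters 6 to 8 there were 1 lower and 1 higher. Gad1 (-0.57 ± 0.23) and Gad2 (-0.31 ± 0.23) did not pass the test. Gad1 was above the other neurons in 4 of 8 pools and Gad2 in 3.

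Among receptor genes, NMDA and GABA-A lists had calls in both directions. The shares over all genes were 4.43% higher and 4.19% lower, or 5.17% and 2.17% under RLE. Of 6 NMDA receptor genes Grin2c and Grin2d rose and Grin2a and Grin2b fell; RLE and DESeq2 each kept 1 lower, and without clusters 6 to 8 Grin2b, at -0.66, was not called. Against neurons with Gad1 or Gad2 Grin2d turned to -0.71. Grin2c, a subunit known from the thalamus and cerebellum, ran from 7.39 to 167 CPM (median 24.0) against 1.48 to 4.60, without overlap (2.72 ± 0.42), and Grin2a from 1229 to 2043 (median 1710) against 3289 to 4076, also without overlap (-1.47 ± 0.18). Of 11 AMPA and kainate receptor genes Gria1 (-1.56 ± 0.17), Gria2 (-1.23 ± 0.19), Gria3 (-1.05 ± 0.20) and Grik4 (-1.53 ± 0.20) fell; RLE kept 2 lower. Of 7 metabotropic genes Grm5 fell, and RLE called none lower and 1 higher. Of 17 GABA-A and glycine receptor genes Glra1 (2.65 ± 0.41), the glycine receptor subunit of the brainstem and spinal cord, and Gabrg1 (1.66 ± 0.43) rose, while 3 fell, among them Gabra2 and Gabra5; RLE gave 3 higher and 2 lower and the fit without clusters 6 to 8 gave 4 and 2. Glra1 was highest in Con-IL-1R1+/+ at 53.0 CPM and at 0 in Stress-PLX5622.

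Of 17 calcium, HCN and sodium channel genes Hcn4, a slow pacemaker channel of thalamic relay neurons, rose (2.59 ± 0.46; 0 to 37.7 CPM, median 12.8, against 0.858 to 3.18) and 5 fell, among them Cacna1e, Cacna1h, Cacna1i and Scn8a; RLE gave 2 higher and 3 lower, as did the fit without clusters 6 to 8. The T-type channel gene Cacna1g was above the other neurons in 8 of 8 pools without overlap (115 to 358 CPM against 68.9 to 111) and at 0.90 ± 0.22 stayed under the size asked for, while without clusters 6 to 8 it was called (1.36). Of 29 potassium channel genes 9 fell, with 4 under RLE, and none rose. Without clusters 6 to 8 there were 3 lower and 2 higher, Kcnc2 (1.12) and Kcnn3 (1.09). The direction of Kcnmb4 turned against neurons with Gad1 or Gad2. Of 33 modulator receptor genes Adra1b rose (1.99 ± 0.33) and 10 fell, among them the muscarinic Chrm1 (-1.58 ± 0.21) and Chrm3 (-1.42 ± 0.19) and the cannabinoid receptor Cnr1 (-1.91 ± 0.33). RLE gave 8 lower and 2 higher. Without clusters 6 to 8 this list had 7 lower and 9 higher, among the latter Htr7, Drd2, Chrm2, Chrna4 and Oprm1. Of 42 axon guidance and adhesion genes 14 fell and none rose. RLE gave 9 lower and 2 higher, and the fit without clusters 6 to 8 gave 9 and 7. Against neurons with Gad1 or Gad2 the direction turned for Ntng2, Robo3, Slit3, Epha4 and Nrp1. Of 11 peptide and calcium-binding genes Calb2 alone was called, higher. Beside each of these lists, the shares over all genes were 4.43% higher and 4.19% lower, or 5.17% and 2.17% under RLE. Without clusters 6 to 8 they were 3.33% and 3.78%.

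Genes linked to stress are given beside the 4.43% and 4.19% of all genes called higher and lower. Of 8 glucocorticoid-related genes Errfi1 fell, a call lost under RLE, while without clusters 6 to 8 Zbtb16 (-1.10) and the mineralocorticoid receptor gene Nr3c2 (-1.35) were the 2 lower. Fkbp5, a glucocorticoid-induced chaperone, did not pass the test (0.72 ± 0.32, edgeR adjusted p = 0.161). It was at 657.5 CPM in cluster 6 and 1729 in cluster 8 but at 28.5 to 76.3 in clusters 1 to 5, and without clusters 6 to 8 its log2 fold change was -0.53 (edgeR adjusted p = 0.109). Of 7 activity genes Arc (-1.84 ± 0.37) and Npas4 (-1.37 ± 0.43) fell; RLE kept 1 of the 2. None of 6 IL-1 genes was called by edgeR, and DESeq2 called 2 higher.

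Il1r1, the gene deleted in nIL-1R1-/- mice, gave few UMIs or none in the selected nuclei outside Con-IL-1R1+/+ and Control-Vehicle. The selected nuclei held 52 UMIs in Con-IL-1R1+/+ (9.37 CPM, exact Poisson 95% interval 6.999 to 12.3) and 14 in Control-Vehicle (12.3 CPM). They held 3 in Control-PLX5622, 3 in Stress-Vehicle, 2 in Stress-IL-1R1+/+ and none in Stress-PLX5622. In the nIL-1R1-/- pools they held 4 UMIs in controls (33.2 CPM, 9.05 to 85.1) and none after RSD. In the other neurons Il1r1 was at 5.20 and 4.78 CPM in these knockout pools and at 12.2 to 22.5 in the other 6, so the labels of genotype matched the level there. With 18 and 32 selected nuclei in the knockout pools, of which 13 and 27 were in clusters 6 to 8, loss of Il1r1 in the selected neurons was not detectable at this depth.

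The other neurons also differed between pools in genes of the clusters. Foxp2, Meis2 and Rbm20 were highest in the other neurons of Stress-IL-1R1+/+ (68.3, 170.7 and 16.9 CPM) and Synpo2 in those of Control-PLX5622 (26.6). Some other genes were highest in the other neurons of Con-IL-1R1+/+. Of genes the rule did not use, Ebf1 was at 66.3 CPM there against 8.99 to 39.9 in the other neurons of the other 7 pools, Glra1 at 9.35 against 0.718 to 2.85, Gata3 at 4.21 against 0.0733 to 0.511 and Tfap2d at 5.62 against 0.715 to 3.52. Of the rule genes, whose levels there the rule had cut, Zfhx3 was at 130.2 against 29.0 to 61.0 and Tcf7l2 at 32.8 against 10.7 to 46.4. These other neurons were the comparison group of the test above. Whether their UMIs of these genes came from nuclei of the same kind or from free RNA was not tested.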

How the data were processed

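The deposited matrices hold UMI counts per gene and nucleus, made by the authors with the Parse Biosciences pipeline on mm39 (Seurat 4.1.1 in their notes; annotation release not given in the sources used here). Nuclei over 20% mitochondrial UMIs or under 500 UMIs were left out, which kept 48821 of 57350. Members and gene lists were chosen with earlier results of these data known. Counts were summed per pool for selected nuclei and other neurons and fitted with edgeR 4.0.16 (TMM, low-count filter, quasi-likelihood, pool as a term) under R 4.3.3. A call was an adjusted p under 0.05 with an absolute log2 fold change of at least 1. Genes named were the 15 higher and 15 lower called genes with the largest change among those at 20 CPM or more and alike in direction in every pool, genes from the 5 with the largest fold in each cluster at 50 CPM or more (not all are printed), the listed markers and Il1r1; cluster genes named beyond the first 5 were chosen after their values were seen. Selected nuclei were clustered with scanpy 1.11.5 (2000 variable genes, 20 components, Leiden resolution 0.5). The cut that Scrublet set by itself gave at most 1 doublet in each of 7 pools but 1492 in Con-nIL-1R1-/-, so it was set aside, and the top 6% of scores per pool served instead; no doublet was removed from the main results. The fit was tested on simulated counts, in which TMM placed unchanged genes lower in the selected nuclei than RLE did, so list counts under RLE are given where they differ from the main ones. Combinations of the 3 well barcodes that occurred in more than 1 sublibrary numbered 2327, and none occurred in more than 1 pool. Samples are sublibraries and the pool is the replicate. Cre- and Cre+ mice were housed together during RSD per the study's methods. P-values measure the spread between pools. Some genes are not reported here.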

Additional observations from a re-analysis of the deposited data

Results flagged for a closer look

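Among the 6 first-round wells of Con-nIL-1R1-/-, well C10 had a share of selected nuclei of 0.5613%, apart from the other wells by 0.647 of the range. Such gaps were looked for in 11 groups, and chance gives about 1 in 20. The share of selected nuclei was lower after RSD in IL-1R1+/+ mice, by -11.3 percentage points, and higher in nIL-1R1-/- mice, by 0.308 points; with 1 pool per condition the difference between these was not tested. In the nIL-1R1-/- pools 13 of 18 and 27 of 32 of the selected nuclei were in clusters 6 to 8, and without these the shares were 0.0806% in controls and 0.0935% after RSD.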

How the results depend on the processing

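All comparisons of selected nuclei with other neurons kept the pool as a term; with no replicate block, 1236 genes were called (637 higher, 599 lower) of 13182. RLE gave 352 lower and DESeq2 1087 higher and 305 lower, so that 70.4% and 78.1% of calls were higher against 51.4%, while nuclei thinned to 1000 UMIs gave 479 and 841 (36.3% higher) and no filter on low counts 512 and 718 (41.6%). Against other neurons with Gad1 or Gad2, 883 genes were called (346 lower), for members with Slc17a6 (3 pools) 763 (327 and 436), and for the 3 pools with 50 or more members 860 (414 and 446). Leaving out 1 pool in turn gave 1086 to 1676 calls (547 to 908 higher, 527 to 768 lower), and a difference in share of -4.95 to -1.002 points. Slc17a6 was found in 31.4% of nuclei at 6 or more summed UMIs; the largest pool held 65.1% at 3 or more and 71.8% at 6 or more. Directions turned, on the log2 scale, against Gad neurons for Grin2d (-0.71), Zbtb20 (0.28), Nrp1 (0.18), Epha4 (0.25), Fibcd1 (0.28), Robo3 (0.40), Ntng2 (0.21), Neurod2 (0.0249), Dsp (0.36), Kcnmb4 (0.11) and Slit3 (0.20). Against Slc17a7 neurons they turned for Reln (0.22), Erbb4 (1.28) and Dlx6os1 (0.68). With Slc17a6 members only they turned for Slc1a3 (-1.29), Mertk (-0.91), Gata3 (-0.35), Csf1r (-1.17), Inpp5d (-0.66) and P2ry12 (-0.74), and with pools of 50 or more for Slc1a3 (-0.16). Without clusters 6 to 8 they turned for Slc1a3 (-0.82), Mertk (-0.86), Csf1r (-1.29), Inpp5d (-1.22), P2ry12 (-0.52) and Cx3cr1 (-0.29). The causes were not tested. The settings with 50 or more members and without clusters 6 to 8 were chosen after seeing the data. Pools with 15 to 44 selected nuclei limit the depth for rare genes.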
